A study of Mus musculus with 18 samples.

Results

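The 9 genes described here are 6 chemokines, Cxcl1, Cxcl10, Cxcl16, Cx3cl1, Ccl20 and Ccl25, and 3 genes under the control of the transcription factor NF-kB, Nfkbia, Relb and Tnfaip3. They were taken by symbol from a table of 24116 genes, and each symbol matched 1 row. RNA was sequenced from mouse intestinal organoids, epithelial structures grown in a gel from stem cells of the intestine, on 6 days of culture from day 0 to day 5, with 3 libraries for each day and 18 in all. All libraries came from wild type C57BL/6 animals aged 8 weeks, and each pooled the RNA of 30 wells. The base medium of all days held R-spondin, Noggin and EGF. From day 0 to day 1 it was supplemented with 3 µM CHIR99021, which inhibits the kinase GSK3 and so activates Wnt signalling, with 20% medium conditioned by Wnt3a-producing cells, and with 10 µM Y-27632, an inhibitor of ROCK. CHIR99021 was left out from day 1, and the Wnt3a medium and Y-27632 from day 3, so the days differ in both time and medium, and these cannot be told apart. The sample titles give mouse 1 for replicate 1 and mouse 3 for replicate 3 throughout, and mouse 2 for replicate 2 except on days 1 and 2, where they give mouse 1.

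Chemokines are small secreted or membrane-bound proteins that draw leukocytes along a gradient. In the intestinal epithelium, Ccl25 attracts lymphocytes that carry the receptor Ccr9 to the small intestine, and Ccl20 attracts cells that carry Ccr6 to the epithelium over lymphoid follicles. Cxcl16 and Cx3cl1 are made as membrane proteins, with the receptors Cxcr6 and Cx3cr1, and are released by the proteases Adam10 and Adam17. NF-kB dimers are held in the cytoplasm by IkB proteins until a kinase complex marks these for destruction, and NF-kB then induces its own inhibitors. Nfkbia encodes IkB-alpha, Tnfaip3 encodes the ubiquitin-editing enzyme A20, and Relb encodes the NF-kB subunit of the non-canonical pathway.

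NF-kB binds a degenerate site, and the bases before the start site are shown for the 5 members in which such a site was matched. The RefSeq promoter table for build GRCm38.p6 held an entry for 7 members, and Cxcl16 and Relb were not among them. The 250 bases before each annotated start were searched on both strands for the kB site (GGG, any 3 bases, TTCC), the core of an interferon-stimulated response element (TTTC, any 2 bases, TTTC) and the AP-1 site (TGANTCA, where N is any base), which gave no overlap between different motifs. Sequences run 5′ to 3′ on the strand of the gene and end at the base before the start site, and capitals mark the matches.
Cxcl1, chr5:90891095-90891244, plus strand: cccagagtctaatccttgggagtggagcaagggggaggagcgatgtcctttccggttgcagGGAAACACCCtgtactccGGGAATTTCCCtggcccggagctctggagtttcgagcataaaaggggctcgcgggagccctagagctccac
Cxcl10, chr5:92348890-92349139, minus strand: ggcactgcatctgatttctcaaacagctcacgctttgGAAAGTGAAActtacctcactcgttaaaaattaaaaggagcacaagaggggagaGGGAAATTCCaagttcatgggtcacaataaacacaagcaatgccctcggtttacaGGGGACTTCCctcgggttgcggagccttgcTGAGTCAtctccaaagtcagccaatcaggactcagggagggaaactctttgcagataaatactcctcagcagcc
Ccl20, chr1:83116616-83116765, plus strand: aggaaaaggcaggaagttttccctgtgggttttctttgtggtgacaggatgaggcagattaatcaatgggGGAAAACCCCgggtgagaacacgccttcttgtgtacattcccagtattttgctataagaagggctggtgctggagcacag
Nfkbia, chr12:55492648-55492797, minus strand: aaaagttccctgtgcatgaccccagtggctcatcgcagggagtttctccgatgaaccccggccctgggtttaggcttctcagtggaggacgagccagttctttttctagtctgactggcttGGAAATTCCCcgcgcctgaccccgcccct
Tnfaip3, chr10:19015411-19015560, minus strand: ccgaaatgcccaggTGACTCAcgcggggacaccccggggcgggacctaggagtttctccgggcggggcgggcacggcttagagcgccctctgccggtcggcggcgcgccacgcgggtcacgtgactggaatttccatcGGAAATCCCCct
The kB motif was found in Cxcl1, Cxcl10, Ccl20, Nfkbia and Tnfaip3, which are 5 of the 7 members with an entry, and in 4.65% of the 32851 windows of this length in the table. Members were counted by gene, with a match in any window, and the share is of single windows. Ccl25 and Tnfaip3 have 2 windows each. Cxcl1 has a match that begins 89 bases before its start and a pair of overlapping matches, on opposite strands, that begin at 71 and 70 bases. Cxcl10 has kB matches at 159 and 104 bases, and it alone among the 7 holds the interferon element, which lies at 213 bases and occurs in 2.98% of all windows. The AP-1 motif, present in 6.75% of all windows, was matched in Cxcl10 and Tnfaip3. Tnfaip3 has a second annotated start, not shown, with a kB match 90 bases before it. A match is a description of the letters, and binding was not measured here.

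**Figure D1:**
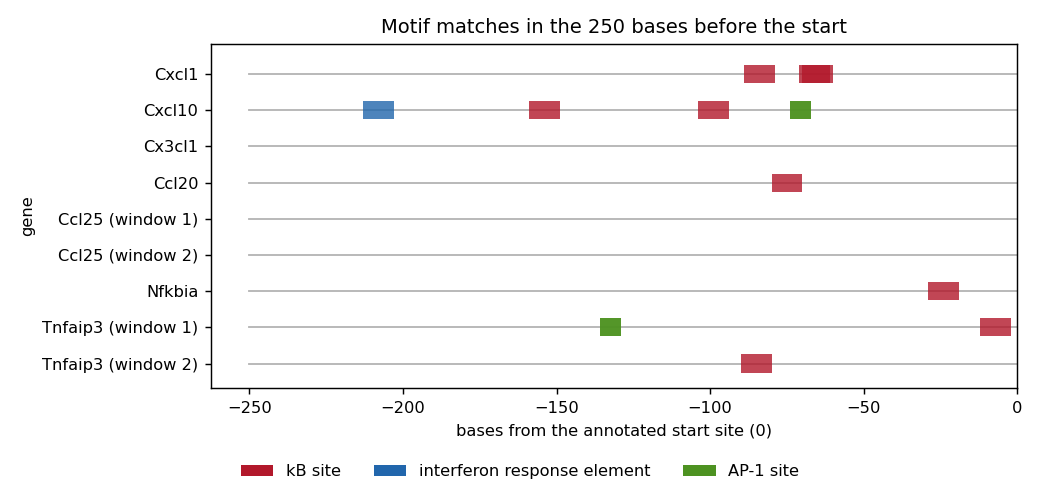
Motif matches in the 250 bases before each annotated start of the 7 members with a RefSeq promoter entry. The horizontal axis gives the distance from the start site in bases, each grey line is 1 window, and coloured boxes are matches; the kB boxes lie in 5 genes, and Cxcl10 carries all 3 motifs.

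Values are RPKM, the reads of a gene scaled by its length and by the reads of its library, so levels can be compared between genes. Whole reads were recovered from the steps between low values, which implied 43008272 to 53929907 reads per library. Of all genes, 9953 to 10758 reached 1 RPKM in a library, and the 11111 that reached it in 3 or more libraries were tested. Markers of the epithelium summed to 2113 to 7118 RPKM in a library. Of 14 markers of immune cells, 12 stayed under 1 RPKM in every library, Ptprc, which marks all leukocytes, did not pass 0.0061 RPKM, and the list summed to 3.19 to 4.5 RPKM on day 0 and 1.02 to 3.03 RPKM on later days. Of 9 mesenchymal markers, 7 stayed under 1 RPKM in every library, with Dcn and Lum at 0 throughout. Vim and Pdgfrb reached 4.34 and 2.14 RPKM, both in replicate 1 of day 0, and the mesenchymal list summed to 0.708 to 6.57 RPKM. Endothelial markers summed to at most 0.24 RPKM, with Emcn at 0. DNase was left out for replicate 1 on each day, so the untreated batch holds 1 library for each day and gives no test of its own.

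The 9 genes spanned a wide range of levels. Ccl25 was the most abundant chemokine in every library, with 53.3 to 289.8 RPKM, was passed among the 9 genes by Nfkbia in replicate 1 of day 0, and made up between 58.6% and 86.7% of the summed RPKM of the 6 chemokines. Nfkbia, at 19.6 to 66.7 RPKM, and Cx3cl1, at 10.3 to 32.0 RPKM, followed. Relb, Tnfaip3, Ccl20 and Cxcl16 lay lower on most days, and Cxcl1 and Cxcl10 lay lowest. When the days were ordered by their mean, the values of neighbouring days overlapped for every member. Of the 9 members, 7 passed the filter on low values and were tested with limma on log2(RPKM + 1). Changes below are on that scale, on which those of weakly expressed genes come out too small, and a call is a Benjamini-Hochberg adjusted p under 0.05 over all 11111 genes.

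**Figure D2:**
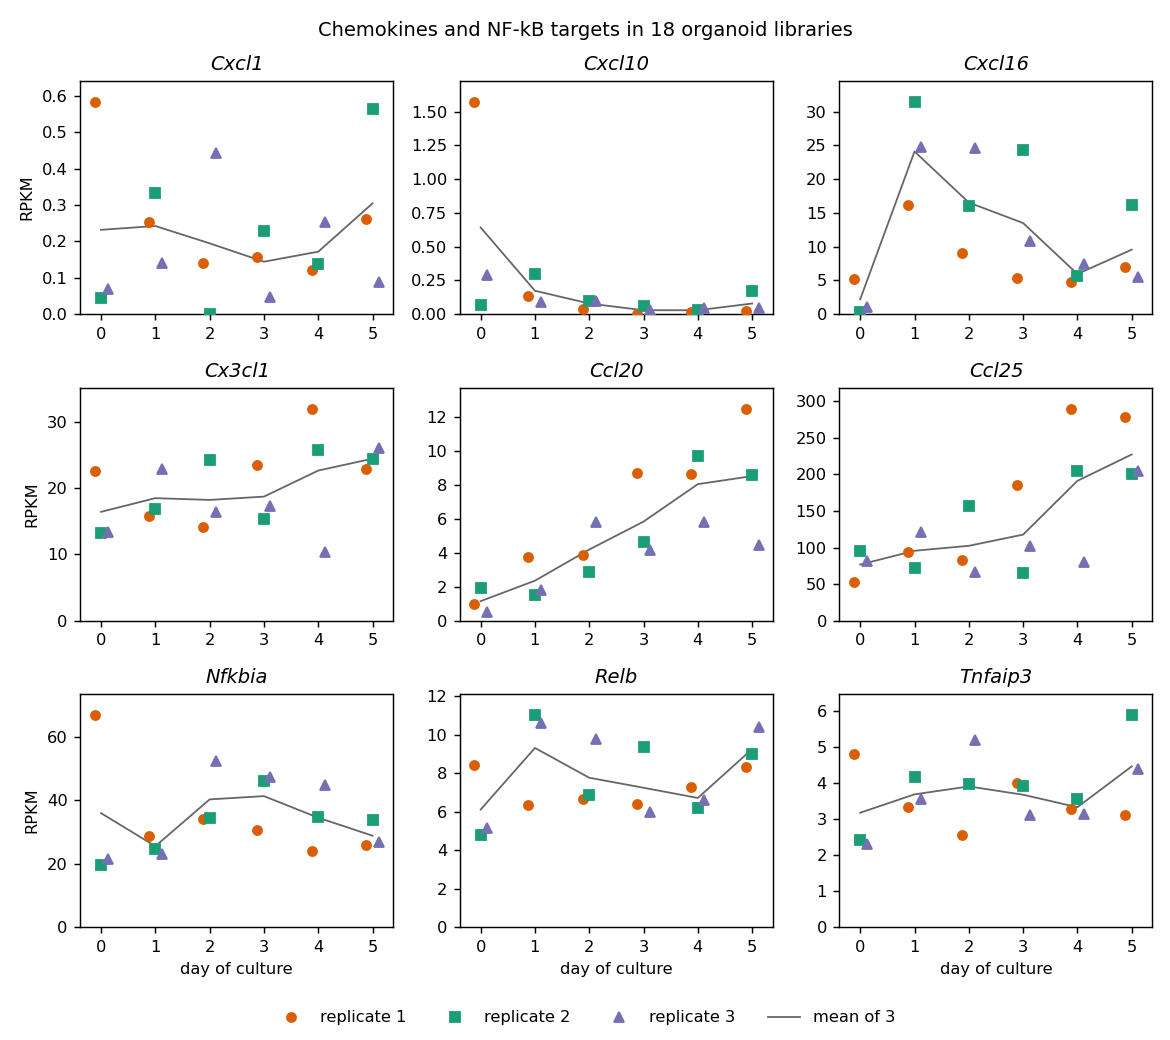
RPKM of each of the 9 genes in the 18 libraries (vertical axis, from 0, scaled per gene) by day of culture (horizontal axis), with 1 symbol for each replicate and a line through the mean of 3. Cxcl16 peaks on day 1 with a mean of 24.1 RPKM, Ccl20 and Ccl25 climb to means of 8.51 and 227 RPKM on day 5, and replicate 1 of day 0 is high for Cxcl1, Cxcl10 and Nfkbia.

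In the test over all 6 days, 2 of the 7 tested members were called, Ccl20 and Cxcl16, beside 25.3% of all genes tested. In the first day, 1 member was called and it rose, beside 18.6% of all genes called and 9.54% called as higher. Between day 0 and day 5, 3 members were called and all 3 rose, beside 24.4% called and 11.4% called as higher. From day 1 to day 5, 1 member was called and it rose, beside 27.8% called and 11.8% called as higher. With limma, 0 members were called between adjacent days after day 1, and 0 reached an unadjusted p under 0.05. The step from day 1 to 2 called 0.0% of all genes, with 2.37% at an unadjusted p under 0.05, and that from day 2 to 3 called 0.0%, with 0.432%. The step from day 3 to 4 called 0.036%, with 4.87%, and that from day 4 to 5 called 0.189%, with 4.09%.

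The values themselves can also be set against each other. All 3 later values lay above all 3 earlier ones for 1 tested member from day 0 to day 1, Cxcl16, and for 21.6% of all genes tested. Between day 0 and day 5 this held for 4 members, Cxcl16, Cx3cl1, Ccl20 and Ccl25, and for 19.2% of all genes. Between day 1 and day 5 it held for 3, Cx3cl1, Ccl20 and Ccl25, and for 19.0%. It held for Nfkbia between days 1 and 2, beside 4.18% of all genes, and for Relb between days 4 and 5, beside 5.43%.

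The median log2 change of the 7 tested members was 0.32 from day 0 to day 1, against 0.0 over all genes tested. Between day 0 and day 5 it was 0.59, against −0.17, and from day 1 to day 5 it was 0.19, against −0.15. Rescaling the libraries by the median of ratios brought the median of all genes from day 0 to day 5 to 0.0. It moved the share of higher genes among those called from 46.7% to 58.9%. Quantile normalization gave a median of −0.11 and moved that share the other way, to 43.9%. The comparisons with day 0 share its libraries, as do those with day 5.

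**Figure D3:**
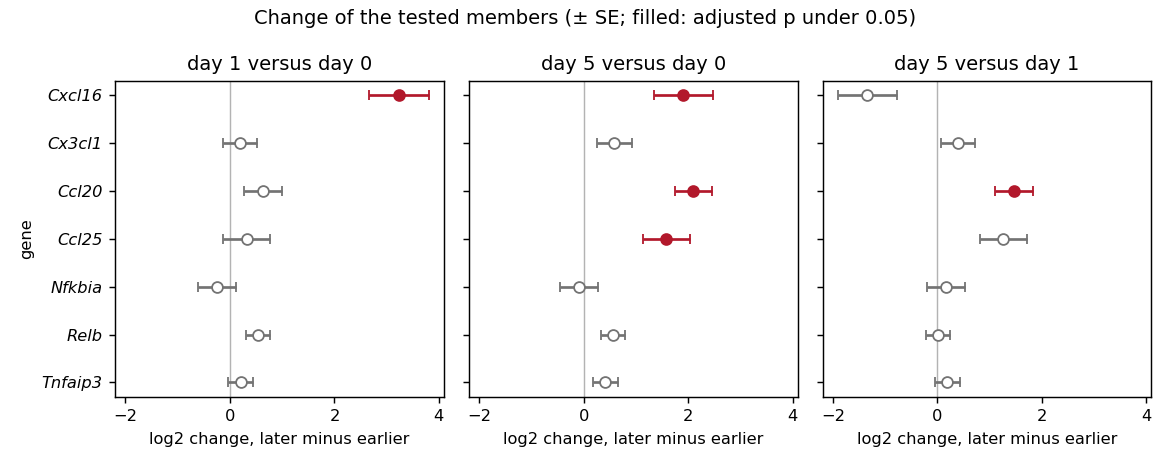
Log2 change, later minus earlier day (horizontal axis), of the 7 tested members in 3 comparisons, with bars of 1 SE on each side; filled symbols have an adjusted p under 0.05. Cxcl16 lies at 3.24 from day 0 to day 1, and Ccl20, Ccl25 and Cxcl16 are filled from day 0 to day 5.

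Cxcl16 rose most sharply in the first day. Its RPKM was 5.2, 0.347 and 1.02 in replicates 1, 2 and 3 of day 0 and 16.1, 31.4 and 24.8 on day 1. All 3 libraries of day 1 lay above all 3 of day 0, and replicate 1 was the highest of day 0. The values behind these levels were 43 to 677 reads on day 0 and 2225 to 3569 on day 1. The log2 change was 3.24 ± 0.57 (SE), with an adjusted p of 0.0015 in limma, and the means differed 11.0-fold, or 35.3-fold without replicate 1 of day 0, where the log2 change was 3.88. The call was made in each of 29 alternative fits, with adjusted p from 2.46e-05 to 0.0105. A change in the share of cells that make a transcript and a change in its amount per cell cannot be told apart in these pooled samples.

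After day 1, the day means of Cxcl16 were lower, though no step between adjacent days was called. The standard deviation was 31.9% of the mean on day 1, and on later days it ran from 23.6% on day 4 to 72.4% on day 3. Cxcl16 was 9.0, 16.0 and 24.6 RPKM on day 2. On day 3 it was 5.28, 24.3 and 10.9 RPKM, and replicate 2 stood above the other libraries of that day. It was 4.73, 5.6 and 7.47 RPKM on day 4 and 6.94, 16.2 and 5.51 RPKM on day 5. Values of day 5 lay above those of day 0, with a log2 change of 1.91 ± 0.57 and an adjusted p of 0.0263. That call was lost without replicate 2 of day 0 (adjusted p = 0.115), replicate 3 of day 0 (0.0853), replicate 1 of day 5 (0.0671) or replicate 2 of day 5 (0.104). From day 1 to day 5 the log2 change was −1.34 ± 0.57 with an adjusted p of 0.0864, and the values of these days overlapped. It passed the threshold when these 2 days were fitted alone (0.0205). It also did so without the 3 libraries that stood apart in earlier work on these data (0.0247). These were replicate 1 of day 0, replicate 2 of day 3 and replicate 3 of day 4. They were chosen from these same data, so fits without them are given as a description.

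Cx3cl1, the other membrane chemokine, was 22.6, 13.3 and 13.4 RPKM on day 0 and 22.9, 24.4 and 26.1 RPKM on day 5. All values of day 5 lay above those of day 0, the lowest of them by little. The log2 change was 0.59 ± 0.33 and the adjusted p 0.184. Day means ran from 16.4 RPKM on day 0 to 24.5 RPKM on day 5, and the widest spread was on day 4, at 32.0, 25.7 and 10.3 RPKM. The test over all days gave an adjusted p of 0.668, which became 0.0289 without the 3 libraries named above, and the change from day 0 to day 5 then had an adjusted p of 0.0186. The proteases that release these chemokines and their cofactors were described with 4 genes, Adam10, Adam17, Rhbdf1 and Rhbdf2. All were tested and none was called over the days, beside 25.3% of all genes tested. Adam10 averaged 33.9 RPKM on day 0 and 23.9 RPKM on day 5, and Adam17 averaged 9.03 and 8.15 RPKM.

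Ccl20 climbed by day mean through the whole culture. Its RPKM was 1.01, 1.9 and 0.536 on day 0, 3.75, 1.51 and 1.81 on day 1, and 3.88, 2.89 and 5.81 on day 2. It was 8.69, 4.66 and 4.18 on day 3, 8.66, 9.69 and 5.81 on day 4, and 12.5, 8.62 and 4.46 on day 5. Each pair of adjacent days overlapped, whereas every library of day 5 lay above every library of days 0 and 1. Between day 0 and day 5 the log2 change was 2.1 ± 0.36, with an adjusted p of 0.00168, and the means differed 7.41-fold. This call was made in each of 29 alternative fits, with adjusted p up to 0.0297. From day 1 to day 5 the log2 change was 1.47 ± 0.36 with an adjusted p of 0.0107, which became 0.0528 without replicate 1 of day 5. The test over all days gave an adjusted p of 0.00326.

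Ccl25 had the same order of day means as Ccl20 at a far higher level. It was 53.3, 94.8 and 82.1 RPKM on day 0, 93.5, 72.2 and 121 on day 1, and 83.0, 157 and 67.0 on day 2. It was 186, 65.0 and 102 RPKM on day 3, 289.8, 204 and 79.8 on day 4, and 278, 199.9 and 204 on day 5. Libraries of days 3 and 4 ranged from levels seen on day 0 to levels seen on day 5, and replicate 2 of day 3 and replicate 3 of day 4 were the lowest of their days. From day 0 to day 5 the 3 later values lay above the 3 earlier, with a log2 change of 1.58 ± 0.45 and an adjusted p of 0.0228. The call was lost without replicate 1 of day 0 (adjusted p = 0.0742), replicate 3 of day 0 (0.0527) or replicate 1 of day 5 (0.0922), and among the DNase-treated libraries alone (0.126). From day 1 to day 5 the log2 change was 1.26 ± 0.45 and the adjusted p 0.0504, with no overlap of values. That p was 0.0386 with a term for the mouse in the titles and fell to between 0.0193 and 0.042 without replicate 2 of day 2, replicate 1 or 2 of day 3, or replicate 1 or 3 of day 4. These are 5 of the 18 fits that left out 1 library. Of 29 alternative fits, 10 made this call, and the adjusted p reached 0.152. The test over all days gave an adjusted p of 0.0817, which was 0.0473 without replicate 2 of day 2, 0.0444 without replicate 1 of day 3 and 0.0117 without replicate 3 of day 4. The other fits that left out 1 library did not call it, with adjusted p up to 0.203. Over 28 alternative fits, 5 called it, and the adjusted p reached 0.335.

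Cxcl1, which attracts neutrophils through Cxcr2, was at 0.0 to 0.583 RPKM, from 0 to 28 reads in a library. Cxcl10, an interferon-induced ligand of Cxcr3, was at 0.0 to 1.57 RPKM, from 0 to 121 reads. For both, the highest of all 18 libraries was replicate 1 of day 0. On that day Cxcl10 was 1.57, 0.0682 and 0.287 RPKM and Cxcl1 was 0.583, 0.0437 and 0.0688 RPKM, so the spread within day 0 exceeded the differences between the means of the days. Neither passed the filter. Without it, limma gave adjusted p over all days of 0.949 for Cxcl1 and 0.303 for Cxcl10.

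Of the NF-kB targets, Nfkbia had its highest and its lowest library on the same day. On day 0 it was 66.7, 19.6 and 21.4 RPKM, and on day 1 it was 28.6, 24.7 and 23.2 RPKM. Day means lay between 25.5 RPKM on day 1 and 41.3 RPKM on day 3, and the values of day 2, at 34.1, 34.3 and 52.3 RPKM, all lay above those of day 1. The test over all days gave an adjusted p of 0.533. That p became 0.0286 among the DNase-treated libraries and 0.0433 without the 3 libraries named above. Both fits leave out replicate 1 of day 0 together with other libraries. None of the 18 fits that left out 1 library called Nfkbia over the days (adjusted p from 0.0611 to 0.676). From day 0 to day 5 the log2 change was −0.09 ± 0.36 with an adjusted p of 0.864, and its sign turned under median-of-ratios rescaling.

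Relb was 8.42, 4.77 and 5.13 RPKM on day 0, 6.32, 11.0 and 10.6 RPKM on day 1, and 8.34, 9.0 and 10.4 RPKM on day 5. Replicate 1 of day 0 reached into the range of both later days. To day 1 the log2 change was 0.54 ± 0.23 with an adjusted p of 0.116, and 0.0357 without replicate 1 of day 0 or without replicate 1 of day 1. Of 29 alternative fits, 5 called this change, and the adjusted p reached 0.334. To day 5 the log2 change was 0.56 ± 0.23 with an adjusted p of 0.0816. That p became 0.034 without replicate 1 of day 0, 0.0368 under median-of-ratios rescaling and 0.0358 under quantile normalization. It was under 0.05 in 6 of 29 alternative fits and reached 0.245.

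Tnfaip3 stayed between 2.3 and 5.88 RPKM in the 18 libraries. It was 4.81, 2.42 and 2.3 RPKM on day 0 and 3.11, 5.88 and 4.4 RPKM on day 5, and these ranges overlapped. From day 0 to day 5 the log2 change was 0.41 ± 0.24 with an adjusted p of 0.204, and 0.0248 among the DNase-treated libraries. Only 2 of 28 alternative fits called it, and 0 of the 18 that left out 1 library did, with adjusted p up to 0.53. Over all days the adjusted p was 0.717.

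Replicate 1 of day 0 was the highest of its day for 7 of the 9 members, the exceptions being Ccl20, where it was in the middle, and Ccl25, where it was the lowest. Over all genes tested it was the highest of its day for 37.9%. It held 10.4 times the mean of the other day 0 libraries for Cxcl1, 8.87 times for Cxcl10, 7.63 times for Cxcl16 and 3.26 times for Nfkbia. It was also the highest of day 0 for all 8 epithelial markers, which summed to 3535 RPKM in replicate 1 against 2113 and 2125 in replicates 2 and 3. The same held for 6 of the 7 mesenchymal markers above 0 on day 0, which summed to 6.57 against 1.72 and 4.18 RPKM, and for both endothelial markers above 0, at 0.24 against 0.0603 and 0.146 RPKM. Immune markers were mixed, with replicate 1 the highest for 4 of the 10 above 0 on day 0. Their sum was lowest in replicate 1, at 3.19 against 4.5 and 4.4 RPKM. Most of that sum was Cd68, which was 3.47 and 3.42 RPKM in replicates 2 and 3 and lower in replicate 1. M cell markers summed to 46.8 RPKM in replicate 1 against 32.3 and 36.6 RPKM. Replicate 1 was the highest for 2 of the 5 M cell markers above 0 on day 0. On day 0 the lack of DNase treatment and mouse 1 cannot be told apart, while on days 1 and 2 the titles give mouse 1 with and without that treatment. The part of these in the values was not tested.

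The rest of the NF-kB pathway was described with lists of genes, whose counts of calls over the days stand beside the 25.3% of all genes tested that were called. Of 9 other NF-kB and IkB proteins, all were tested and 2 were called over the days, Nfkbiz and Nfkbib. Nfkbiz, an atypical IkB protein of the nucleus, was 17.5, 12.4 and 11.7 RPKM on day 0 and 6.38, 8.04 and 7.97 RPKM on day 1, a log2 change of −0.8 ± 0.18 with an adjusted p of 0.00726 that was lost among the DNase-treated libraries (0.0669). Nfkbib, which encodes IkB-beta, was 6.06, 8.37 and 9.02 RPKM on day 0 and 12.5, 15.0 and 11.8 RPKM on day 1, a log2 change of 0.68 ± 0.15 with an adjusted p of 0.00657. For neither gene did the values of these days overlap. For Nfkbib from day 0 to day 5 the adjusted p was 0.0705, and 0.0454 with the replicate number as a block. Rela, the main activating subunit, averaged 18.1 RPKM on day 0 and 15.0 RPKM on day 5, with an adjusted p over the days of 0.491. Among all 9, 1 was called as higher and 2 as lower from day 0 to day 1, beside 18.6% of all genes called. From day 0 to day 5, 0 were called as higher and 1 as lower, beside 24.4%. The same counts held from day 1 to day 5, beside 27.8%.

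Of 17 kinases and adaptors upstream of NF-kB, all were tested and 1 was called over the days, Tradd, the adaptor of the TNF receptor. It was 18.4, 19.6 and 19.4 RPKM on day 0 and 30.2, 31.8 and 31.5 RPKM on day 5, with a log2 change of 0.68 ± 0.15 and an adjusted p of 0.00751. Between these days 2 of the 17 were called as higher, Tradd among them, and 2 as lower, beside 24.4% of all genes called. From day 1 to day 5, 0 were called as higher and 2 as lower, beside 27.8%. Of 19 receptors, 9 were tested and 3 were called, Tnfrsf12a, Il17rc and Ltbr. Tnfrsf12a, the receptor of the cytokine TWEAK, was 45.4, 20.8 and 29.7 RPKM on day 0 and 124, 169.6 and 135 RPKM on day 1, and rose by a log2 change of 2.18 ± 0.43 with an adjusted p of 0.00303. It was 23.0, 40.3 and 21.3 RPKM on day 5, lower than on day 1 with an adjusted p of 0.0025. Ltbr, the lymphotoxin receptor, rose from a mean of 50.7 RPKM on day 0 to 80.4 RPKM on day 5, with an adjusted p of 0.006. Il17rc, a subunit of the interleukin 17 receptor, averaged 9.59 and 19.5 RPKM on these days, with an adjusted p of 0.0154. Its adjusted p over all days, 0.0385, became 0.0511 with the replicate block.

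Of 23 other NF-kB targets and feedback inhibitors, 13 were tested and 4 were called over the days, Il18, Pigr, Gadd45b and Birc2. Il18, a cytokine of the epithelium, was 1.34, 0.736 and 1.19 RPKM on day 0, 14.2, 12.4 and 33.9 RPKM on day 1, and 60.9, 25.7 and 37.2 RPKM on day 5. Its rise to day 1 had a log2 change of 3.21 ± 0.61 and an adjusted p of 0.00248. Pigr, which carries IgA across the epithelium, was 346, 493 and 495 RPKM on day 0, 157, 82.2 and 96.1 RPKM on day 1 and 797, 748 and 936 RPKM on day 5. It fell to day 1 with an adjusted p of 0.0213, a call lost without replicate 2 or 3 of day 0 or replicate 2 or 3 of day 1 (0.0698 to 0.0787), and rose from day 1 to day 5 with an adjusted p of 0.00349. Gadd45b and Birc2, which act against cell death, were lower on day 1 than on day 0, with log2 changes of −0.96 ± 0.22 and −0.66 ± 0.13 and adjusted p of 0.00707 and 0.00309.

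Several of these calls over all days were lost when single libraries or the untreated ones were left out, and among the DNase-treated libraries, where 12.2% of all genes were called, 7 of them were lost. The adjusted p there was 0.073 for Nfkbiz, 0.0961 for Nfkbib, 0.0616 for Tradd, 0.161 for Ltbr, 0.21 for Il17rc, 0.0781 for Gadd45b and 0.0826 for Birc2. Nfkbiz lost its call without replicate 1 of day 0 (adjusted p = 0.0562). Nfkbib lost it without replicate 1 (0.0944) or 2 (0.0673) of day 0 or replicate 2 of day 1 (0.0554). Tradd lost it without any of the 3 libraries of day 0 (0.0574 to 0.0598), and Gadd45b without replicate 1 (0.0602) or 2 (0.0505) of day 0. Ltbr lost it without replicate 2 or 3 of day 0, replicate 2 of day 1 or any library of day 5 (0.0503 to 0.078). Il17rc lost it without any library of day 0 or 5, replicate 2 of day 1 or 4, or replicate 3 of day 2 or 3 (0.0505 to 0.131). Its call between day 0 and day 5 was lost without replicate 2 of day 0 (0.0551) or replicate 1 of day 5 (0.0526) and among the DNase-treated libraries (0.0631), and the rise of Tradd to day 1 without replicate 3 of day 1 (0.0514).

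Of 30 other chemokines, again beside 25.3% of all genes called over the days, 27 stayed under 1 RPKM in every library and 3 were tested, of which Ccl6 and Ccl9 were called over the days. Ccl6 was 0.261, 0.0866 and 0.152 RPKM on day 0, 3.12, 1.38 and 1.3 RPKM on day 4 and 10.6, 12 and 8.64 RPKM on day 5. Its rise from day 0 to day 5 had a log2 change of 3.28 ± 0.2 and an adjusted p of 1.27e-07. Its rise from day 4 to day 5 had an adjusted p of 0.000439, which became 0.0574 with a pseudocount of 0.1 and 0.118 with these 2 days fitted alone. Ccl9 was 0.604, 0.372 and 0.846 RPKM on day 0 and 14.0, 12.3 and 9.1 RPKM on day 5, a log2 change of 2.99 ± 0.39 with an adjusted p of 0.000222. The third, Ccl28, named here after its values were seen, was 41.4, 20.0 and 17.4 RPKM on day 0 and 13.0, 6.31 and 7.15 RPKM on day 1. Its log2 change was −1.43 ± 0.41 with an adjusted p of 0.0237, which became 0.0995 without replicate 1 of day 0, 0.0909 without replicate 2 of day 1 and 0.0847 without replicate 3 of day 1.

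**Figure D4:**
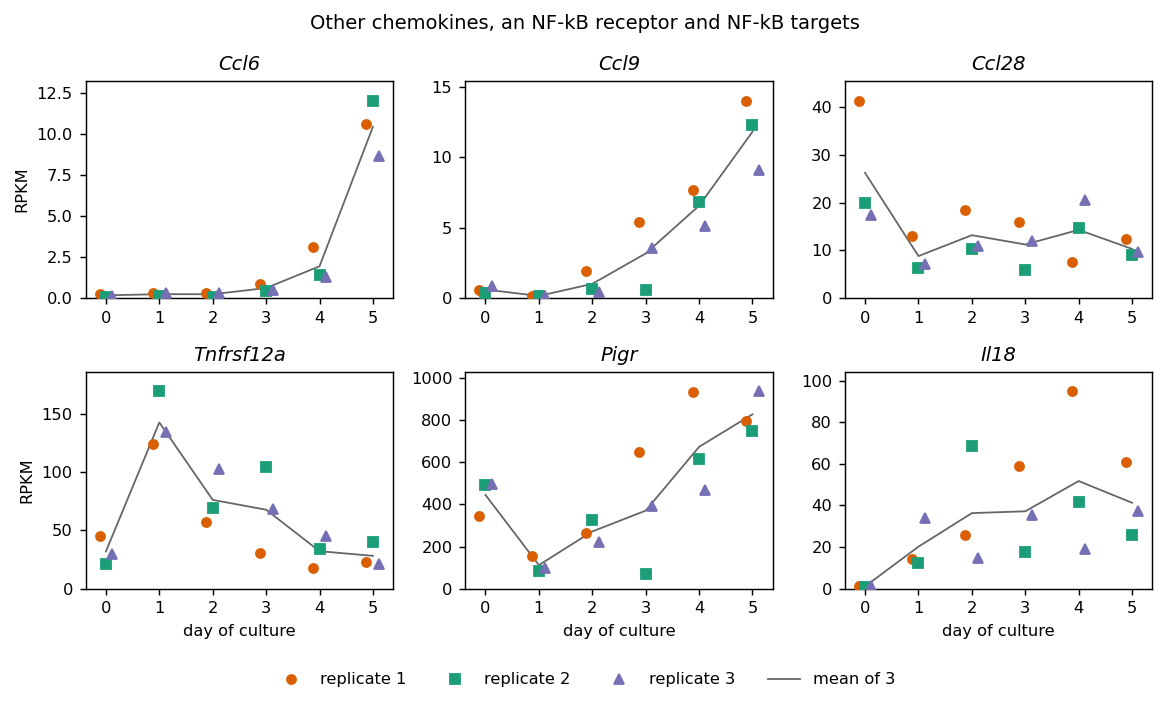
RPKM of 3 other chemokines (upper row) and of a receptor and 2 targets of NF-kB (lower row) in the 18 libraries (vertical axis, from 0, scaled per gene) by day of culture (horizontal axis), with 1 symbol for each replicate and a line through the mean of 3. Ccl6 is under 1 RPKM to day 3 and averages 10.4 RPKM on day 5, and Tnfrsf12a is highest on day 1, at a mean of 143 RPKM.

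The receptors of these chemokines were close to absent. All 21 chemokine receptor genes stayed under 1 RPKM in every library, and 9 of them, among them Cxcr3, Cxcr6 and Ccr6, were listed at 0 throughout. Ccr9, the receptor of Ccl25, reached at most 0.0898 RPKM. Of 15 interferon response genes, 6 were tested and none was called over the days, beside 25.3% of all genes tested. From day 0 to day 5, 1 of the 6 was called and it rose, beside 24.4% of all genes called and 11.4% called as higher. M cells, the epithelial cells over lymphoid follicles, were sought with 7 markers. Of these, 3 were tested and 2 were called over the days, Anxa5 and Ccl9, again beside 25.3% of all genes. Ccl9 is also among the chemokines above. The defining markers Gp2 and Sox8 were at 0 in every library, and Spib did not pass 0.437 RPKM.

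The genes whose log2(RPKM + 1) followed each member most closely over the 18 libraries are given as a description, since libraries of a day share their medium and time. For Cxcl16 they were Rps6ka4, Ezr and Gprc5a, each with a Pearson r of 0.96, and Gprc5a averaged 2.55 RPKM on day 0 and 62.9 RPKM on day 1. For Ccl25 they were P4hb, Adtrp and Cyp2j6, each with an r of 0.97. For Ccl20 they were Akr1a1 (r = 0.9), Gsto1 (0.89) and Lypd8 (0.88), the last of which averaged 218 RPKM on day 0 and 1409 RPKM on day 5. For Cx3cl1 they were Spsb1 (0.93), Mylk (0.92) and Mia2 (0.91). The NF-kB targets had lower values, with Zc3h12a (0.81), Mdm2 (0.78) and Trp53inp1 (0.77) for Nfkbia, Mmp15 (0.86), Oasl1 (0.84) and Sowahb (0.84) for Relb, and Zfp710 (0.83), Nectin2 (0.81) and Zyx (0.8) for Tnfaip3. Zc3h12a is itself on the list of other NF-kB targets, and encodes an RNase that degrades inflammatory transcripts.

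In the RefSeq annotation of mm10, the members lie as follows. Cxcl1 (Entrez 14825) is at chr5:90891245-90893121 and Cxcl10 (15945) at chr5:92346638-92348889. Cxcl16 (66102) is at chr11:70454389-70459984, Cx3cl1 (20312) at chr8:94772180-94782427 and Ccl25 (20300) at chr8:4325205-4360020. Ccl20 (20297) is at chr1:83116766-83119167. Nfkbia (18035) is at chr12:55489409-55492647, Relb (19698) at chr7:19606217-19629438 and Tnfaip3 (21929) at chr10:19000910-19015410. Cxcl10 lies within the span of Art3, Cxcl16 overlaps Zmynd15, and Cx3cl1 and Ccl25 overlap the long non-coding genes Gm51543 and LOC108167518. The use of strand in counting is not given in the sources used here, so reads of overlapping genes may not be separated. Art3 did not pass 0.115 RPKM and Zmynd15 did not pass 0.674 RPKM.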

How the data were processed

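RNA of 18 libraries was measured as RPKM deposited by the authors. Build mm10 and the tools edgeR 3.20.5, STAR 2.5.2b and bcl2fastq 2.17 appear in the submitters' processing notes without roles or settings. Annotation, strand use and the handling of multiply matching reads are not given there. Per the labels' protocols, RNA came from a single-cell purification kit and libraries from an Illumina TruSeq mRNA kit.

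From these values, limma 3.58.1 in R 4.3.3 was fitted on log2(RPKM + 1) with a coefficient for each day over all 18 libraries (lmFit, eBayes with trend), for genes that reached 1 RPKM in 3 or more libraries. Tests are two-sided, with Benjamini-Hochberg adjustment over all 11111 genes. The step was tested on simulated data. Depth was implied from whole-read steps (tolerance 0.02) and exon lengths, with 55 to 105 genes agreeing in each library, and 1 RPKM stands for 43 to 54 reads per kilobase. Groups come from the labels. The pairing comes from the titles, and same-numbered libraries had deviations from their day means correlated at 0.157 on average over 45 pairs, against −0.0764 over 90 other pairs. Libraries of 1 mouse are not separate animals, so p-values measure the spread between libraries. The genes described, the lists and the tests were chosen with earlier results of these data known. All members are named at every day, with up to 4 genes called over the days from each list, by the range of their day means, and the 3 genes most alike to each tested member among those with a day mean of at least 5 RPKM. Protein sequences were not used here. Alternatives changed the block, pseudocount, filter, scaling, weights and libraries.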

Additional observations from a re-analysis of the deposited data

How the results depend on the processing

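Over all days and from day 0 to 1, day 0 to 5 and day 1 to 5, 2, 1, 3 and 1 members were called. With the replicate number as a block the counts were the same 2, 1, 3 and 1, beside 31.7%, 22.1%, 30.4% and 32.8% of all genes. No call of a member changed. Among the other genes named, Il17rc over the days and Nfkbib from day 0 to day 5 changed, as given above. Leaving out each library in turn gave 2 to 3, 1 to 2, 1 to 3 and 0 to 2. The shares of all genes called moved too, over 14.3% to 45.5%, 10.6% to 21.7%, 7.74% to 32% and 13.3% to 35.7%. Without the 3 libraries that stood apart, which were chosen from these same data, the counts were 5, 2, 5 and 3. The shares of all genes tested in that fit were 43.7%, 20.9%, 29.2% and 38.4%. The DNase-treated libraries gave 3, 2, 4 and 1, beside 12.2%, 19%, 10.8% and 15.1%. Day 0 to 5 had 4 under median-of-ratios and under quantile scaling, each adding Relb, beside 24.6% and 26% of all genes. From day 1 to 5 there were 2 with a term for the mouse (Ccl25 added, 34.5% of all genes), 2 with a filter of 5 RPKM (33%) and 3 with these days fitted alone (39.1%).

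Weights for each library were planned, and the default estimate of limma did not converge: it warned that it stopped prematurely and gave replicate 2 of day 4 a weight of 990, against 0.134 to 4.43 for the others. It called 7 members over all days, 2 from day 0 to 1, 5 from day 3 to 4, 3 from day 4 to 5, 7 from day 0 to 5 and 3 from day 1 to 5, beside 92.7%, 42.9%, 65.3%, 36.5%, 66.1% and 55.6% of all genes, and gave Nfkbia a log2 change of 0.52 from day 0 to 5. These values are given for the record and are left out of the ranges over alternatives. A gene-by-gene estimate was then added, after those calls had been seen. It gave weights of 0.246 to 8.56, with replicate 2 of day 4 again the highest, and called 7, 2, 3, 2, 7 and 2 members in the same comparisons, beside 81.8%, 39.3%, 31.2%, 13.5%, 63.4% and 50.8% of all genes. Nfkbia from day 0 to 5 was then 0.48 with an adjusted p of 0.0407, against −0.09 with equal weights. The cause was not tested.

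Of 3767 values for single genes under alternatives other than the default weights, 3567 kept their side of the threshold with no called value turning sign, 113 lost a call, 86 gained one and 1 reversed. Cxcl1 rested on 0 to 28 reads in a library and Cxcl10 on 0 to 121.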
